A study of Danio rerio with 24 samples.

Results

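The transcripts of the zebrafish mitochondrial genome were taken as the rows of the expression tables whose gene name starts with mt- or with NC_002333., which is the name of the mitochondrial genome record. There were 37 such rows among 32520 features, 13 named mt- and 24 named NC_002333. The 13 mt- rows are the protein genes: 7 subunits of respiratory complex I (mt-nd1 to mt-nd6 and mt-nd4l), cytochrome b of complex III (mt-cyb), the 3 core subunits of complex IV (mt-co1, mt-co2 and mt-co3) and 2 subunits of the ATP synthase (mt-atp6 and mt-atp8). A RefSeq gene list of another assembly, GRCz12tu, held the same 13 protein genes together with 22 tRNA and 2 rRNA genes. The 24 NC_002333. rows equal those tRNA and rRNA genes in number, but neither the tables nor the reference paired the rows with them, so each row is called by its name only and its kind is not stated.

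Mitochondrial DNA is a small circle transcribed as long precursors from both strands, which are then cut into single transcripts, largely at the tRNAs that lie between the genes. The level of each product therefore reflects copies of the genome, transcription and the decay of each RNA. The egg supplies the embryo with its mitochondria, and in fish and frogs the germ plasm that marks the future germ cells is rich in them. All protein products of this genome are subunits of the oxidative phosphorylation complexes, whose other subunits are made from nuclear genes.

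The measurements are RNA profiles of 20 libraries from sorted primordial germ cells (PGCs), the founders of the germline, from transgenic embryos with labelled PGCs kept in Holtfreter's water. At 75% epiboly, a gastrula stage, and at 1 day post-fertilization (1 dpf), 3 control libraries (genotype WT) were set against 3 libraries of the germline-specific smad1 knockout (smad1-cKO). At the same stages 2 control-MO libraries (WT, injected with a control morpholino) were set against 2 smad1-KD libraries (WT, injected with a smad1 morpholino, which acts throughout the embryo). The comparisons address what loss of Smad1, a transcription factor of BMP signalling, does to PGCs. All values are TPM, the usual length-scaled share of a library's transcripts, which keeps no read depth, so the depth of the libraries is unknown. In bulk RNA, fewer cells of a type and less RNA per cell cannot be told apart. No separate clutches are named, so the spread behind the p-values is that of the libraries at hand and could be technical.

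The smad1 transcript was lower in the cKO at 1 dpf, at 16.4, 12.5 and 11.7 TPM where the controls had 140.0, 140.0 and 134 TPM (limma adjusted p = 0.000527). In the KD at 1 dpf it was 170 and 70.3 TPM against 201 and 193 TPM, and the difference did not pass the test. At 75% epiboly smad1 was at 2.68, 1.11 and 5.09 TPM in the cKO against 9.68, 13.5 and 17.9 TPM in the controls. In the KD at that stage it was at 2.60 and 4.23 TPM against 9.96 and 9.80 TPM. Neither difference at 75% epiboly passed the test (limma adjusted p = 0.9995 and 0.9998). A morpholino blocks translation or splicing of its target, so the level of the transcript need not fall and is only a partial check of the knockdown. Defining PGC markers were present in all libraries but at unequal levels. The germ cell list, 9 genes such as nanos3 and ddx4, summed to 13399 to 20754 TPM at 1 dpf in the cKO experiment, but to 1046 to 5221 TPM in the morpholino experiment. At 75% epiboly the sums were 4265 to 33591 TPM and 785 to 1585 TPM. A list of 6 red blood cell genes summed to at most 113 TPM at 1 dpf in the cKO experiment and to 6934 to 67906 TPM in the morpholino libraries. The part of these differences in the results below was not tested.

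Transcripts of the 13 mitochondrial protein genes took a larger share of TPM at 1 dpf than at 75% epiboly in every group. In the controls they made up 0.907%, 0.425% and 0.620% of TPM at 75% epiboly and 2.31%, 2.19% and 2.12% at 1 dpf. The cKO libraries gave 0.929%, 0.569% and 0.320%, and then 1.92%, 1.91% and 1.84%. The stages did not overlap in either group, and the ratio of the means was 3.39 in the controls and 3.12 in the cKO. In the control-MO libraries the share was 0.549% and 0.498% at 75% epiboly and 0.970% and 1.06% at 1 dpf, a ratio of 1.94. The KD libraries gave 0.448% and 0.437% and then 1.04% and 1.30%, a ratio of 2.64. All 10 libraries of the later stage lay above all 10 of the earlier one.

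**Figure D1:**
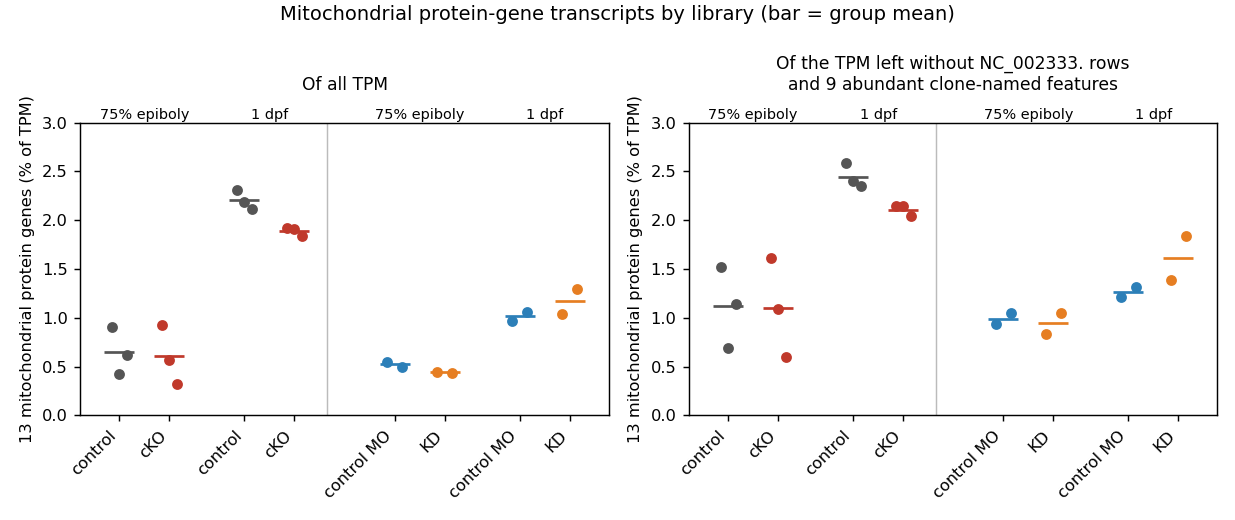
Share of TPM in the 13 mitochondrial protein genes by library (points, with group means as bars), of all TPM at left and of the TPM left without the NC_002333. rows and 9 abundant clone-named features at right. The 1 dpf libraries of the cKO experiment, at 1.84 to 2.31% of all TPM, stand above all others in the left panel.

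Other abundant RNA changed the same denominator. The NC_002333. rows together held 10.4 to 14.7% of TPM at 75% epiboly and 6.82 to 8.22% at 1 dpf in the cKO experiment, and 14.7 to 19.1% and 12.5 to 13.6% in the morpholino experiment. A further 9 features had names starting with 1 of 3 chosen clone names and a mean of at least 1000 TPM each. They are not annotated in the sources used here, and features with other clone names were not set aside. These 9 held 22.0 to 41.8% at 75% epiboly and 1.94 to 16.4% at 1 dpf. Of the TPM that remained without both, the mitochondrial protein genes held 1.12% ± 0.417 (SD, n = 3) in the controls at 75% epiboly and 2.45% ± 0.123 at 1 dpf. That ratio was 2.19, and it was 1.91 in the cKO, 1.28 in the control-MO and 1.71 in the KD libraries. On this base the stages did not overlap within any group, but they did over all groups. Control replicate 1 (1.52%) and cKO replicate 1 (1.62%) at 75% epiboly lay above 3 libraries of 1 dpf. These were the control-MO libraries (1.22% and 1.32%) and KD replicate 1 (1.39%).

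Within the summed TPM of the mitochondrial protein genes, the complex IV part was larger at 1 dpf and the complex I part smaller. The 3 mt-co genes made up 44.4 to 48.8% of the summed mt- TPM at 75% epiboly in the 6 libraries of the cKO experiment and 70.7 to 74.1% at 1 dpf. Over the same step the 7 mt-nd genes went from 29.0 to 30.8% down to 9.59 to 10.98%. In the 4 morpholino-experiment libraries per stage the mt-co share was 53.5 to 56.6% and then 65.4 to 68.3%, and the mt-nd share 20.1 to 21.0% and then 14.5 to 15.1%. The mt-nd genes did not move alike there: mt-nd2 went from a mean of 5.85% to 3.59% and mt-nd4l from 6.47% to 3.28%, while mt-nd1 (1.40 and 1.47%), mt-nd3 (1.45 and 1.68%) and mt-nd4 (1.67 and 1.94%) had a higher mean share at 1 dpf. mt-cyb moved from 12.4 to 15.5% down to 9.11 to 10.1% in the cKO experiment. These shares do not depend on the rest of the library. On those of the mt-co genes together, the mt-nd genes together and mt-cyb the stages did not overlap within either experiment. On that of the ATP synthase genes they overlapped in the cKO experiment. In the morpholino experiment they overlapped on the single shares of mt-nd1, mt-nd3, mt-nd4, mt-nd5, mt-nd6 and mt-co3. That of mt-co3 was 17.7 to 21.3% and then 20.6 to 23.9%.

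**Figure D2:**
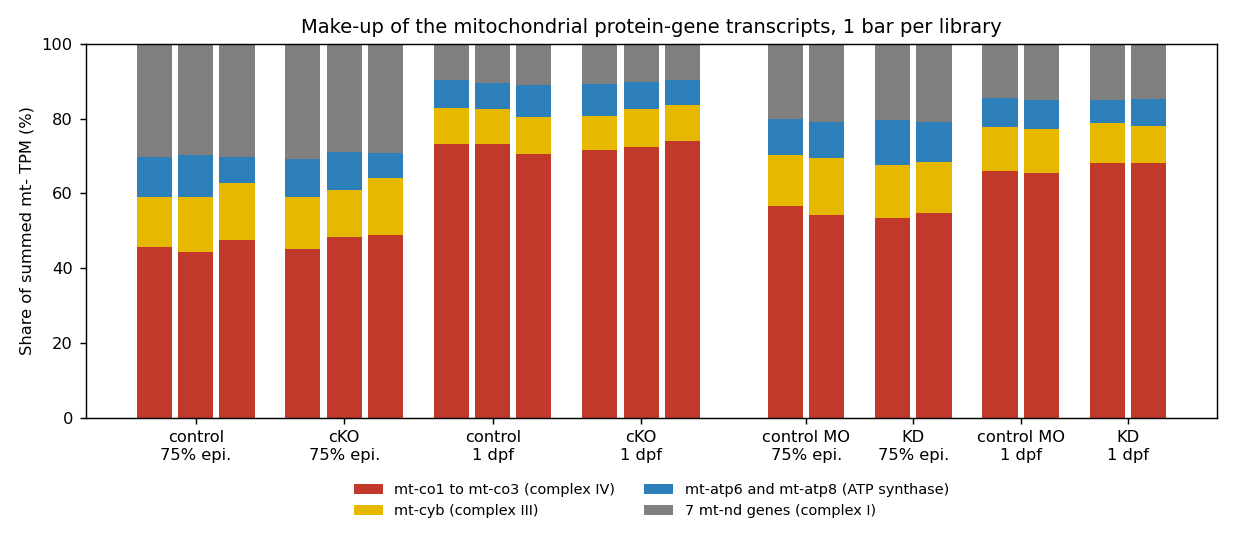
Make-up of the summed TPM of the 13 mitochondrial protein genes, 1 stacked bar per library. The complex IV part is 44.4 to 56.6% in all libraries at 75% epiboly and 65.4 to 74.1% in all libraries at 1 dpf.

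Because TPM are scaled by length, levels of different genes can be set side by side, within limits. How overlapping genes and strand were treated is not given in the sources used here. The places of mt-nd4l, mt-nd4, mt-atp8, mt-atp6 and mt-nd6 are therefore less certain. mt-co2 had the highest group mean of the 13 in all 8 groups, from 1134 TPM in the KD at 75% epiboly to 5593 TPM in the controls at 1 dpf. In the controls at 75% epiboly mt-co3 (944 ± 286 TPM, SD, n = 3), mt-cyb (929 TPM) and mt-co1 (811 ± 313 TPM) followed, and these neighbours did not differ beyond their spread. The lowest there were mt-nd1 and mt-nd3, with means of 146 and 128 TPM. At 1 dpf the controls had 3 mt-co genes at similar levels (5593 ± 394, 5318 ± 426 and 5057 ± 385 TPM for mt-co2, mt-co3 and mt-co1). mt-cyb came next at 2127 TPM and mt-nd4l last at 177 TPM. In the morpholino experiment at 1 dpf mt-co1 stood well below mt-co2, at 1082 ± 93.7 against 3328 ± 366 TPM in the control-MO libraries (n = 2).

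Stage differences per gene were tested with limma on log2(TPM + 1), and a log2 difference is on that scale throughout. Each stage was deposited in a table of its own. TPM are scaled within each library, and a difference between tables cannot be told apart from one between stages. Of the 36 members that passed the filter of a mean of at least 1 TPM, all 13 mt- genes among them, 21 were called in the controls. There 9 mt- genes rose, against 43.9% of all features, and 1 fell, against 11.7% of all features. In the cKO 7 rose, where 45.8% of all features did, and 1 fell, where 10.3% did. The median log2 difference of the mt- genes was 1.16 in the controls and 1.05 in the cKO, beside 0.96 and 1.06 over all features tested. The median feature of the table moved about as far as the median mitochondrial gene. With median-ratio scaling, which sets aside the members and the clone-named features, these pairs of medians were 0.71 against 0.57 and 0.53 against 0.63.

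The catalytic and core subunits of cytochrome c oxidase, mt-co1, mt-co2 and mt-co3, rose in the controls and the cKO whichever of 4 other scalings was used. mt-co1 (ENSDARG00000063905) was at 1168, 582 and 683 TPM in the controls at 75% epiboly and at 5481, 4963 and 4729 TPM at 1 dpf. The cKO libraries gave 1091, 815 and 289 TPM and then 4378, 4920 and 4427 TPM. The stages were far apart, with a log2 difference of 2.70 ± 0.38 (SE; limma adjusted p = 8.26e-05) in the controls and 2.84 ± 0.38 (adjusted p = 5.83e-05) in the cKO. Over the other scalings the difference ran from 2.10 to 2.74 and from 2.14 to 3.10. mt-co3 was at 1199, 635 and 999 TPM and then at 5809, 5089 and 5055 TPM in the controls (2.54 ± 0.27, limma adjusted p = 1.01e-05). mt-co2 rose by 2.28 ± 0.33 in the controls and by 2.02 ± 0.33 in the cKO (limma adjusted p = 0.000103 and 0.000265). For each of these 3 genes the call held in all 12 fits that left out 1 library of the experiment.

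The other rises were smaller and tied to the scaling. mt-atp6, a proton channel subunit of the ATP synthase, rose by 1.70 in the controls and 1.78 in the cKO. Of the 4 other scalings, its call was lost only on the base without the members and the clone-named features (limma adjusted p = 0.052 and 0.055). mt-cyb rose by 1.25 and 1.24, and was not called on that base (0.64 and 0.54). In the cKO it was not called with median-ratio scaling either (0.72). mt-nd1, mt-atp8, mt-nd3 and mt-nd6 were called in the controls at log2 differences of 0.91 to 1.24. With median-ratio scaling they were at 0.45 to 0.79 and not called. These 4 calls were also lost without 1 or more single libraries: without control replicate 2 at 75% epiboly they were at 0.91, 1.01, 0.82 and 0.59, in that order, and without any 1 of the 3 controls at 1 dpf at 0.89 to 1.26. The call of mt-atp8 and that of mt-nd1 were lost without control replicate 3 at 75% epiboly too (0.96 and 0.94). That of mt-nd1 was lost without cKO replicate 2 at 75% epiboly or any 1 of the cKO libraries at 1 dpf (1.06 each).

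In the cKO the calls of mt-nd3 and mt-nd6 were lost without replicate 3 at 75% epiboly, at 0.66 and 0.69, or without any 1 of the 3 cKO libraries at 1 dpf, at 0.85 to 1.16. That of mt-nd6 was lost without replicate 2 at 75% epiboly too, at 0.77. mt-nd4 and mt-nd5 were not called in either group, at 0.72 to 0.84. mt-nd6 is the protein gene that lies on the other strand than the rest, and whether strand was used in quantification is not given in the sources used here, so reads from the opposite strand may be part of its values. Set against the median of the other 12 mt- genes, mt-nd6 stood at 0.450 to 0.768 in the cKO experiment at 75% epiboly and at 0.850 to 1.09 at 1 dpf. With mt-co2 left out of the other genes these ranges were 0.477 to 1.14 and 0.995 to 1.17, and the stages overlapped. In the morpholino experiment this ratio was 0.253 to 0.446 and then 0.372 to 0.729, and the stages overlapped.

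mt-nd4l, a small membrane subunit of complex I, was the 1 mt- gene called lower in the controls and in the cKO. The gene (ENSDARG00000063916) was at 626, 267 and 491 TPM in the controls at 75% epiboly and at 134, 204 and 193 TPM at 1 dpf. In the cKO it was at 583, 375 and 256 TPM and then at 144, 153 and 116 TPM. The stages did not overlap in either group. The log2 difference was -1.31 ± 0.35 (limma adjusted p = 0.00615) in the controls and -1.48 ± 0.35 (adjusted p = 0.00305) in the cKO, and it was called in each of the 4 other scalings and in all 12 fits without 1 library. mt-nd2 was not called, at 775, 387 and 482 TPM and then 386, 372 and 437 TPM in the controls, while its share of the mt- TPM went from 7.72 to 10.1% in the cKO experiment to 1.67 to 2.16%.

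The fall of mt-nd4l set it apart from its neighbour mt-nd4, which follows it directly in the genome and overlaps it in vertebrates. The ratio of mt-nd4l to mt-nd4 was 1.69 to 2.57 in the 6 libraries of the cKO experiment at 75% epiboly and 0.336 to 0.538 at 1 dpf. In the morpholino experiment it was 2.99 to 4.54 and then 1.52 to 1.90. mt-atp8 and mt-atp6, the other overlapping pair, moved less. Their ratio was 0.626 to 0.740 and then 0.416 to 0.494 in the cKO experiment, and 0.638 to 0.739 and then 0.559 to 0.667 in the morpholino experiment. How reads in an overlap were shared out is not given in the sources used here, so the split within each pair is uncertain.

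**Figure D3:**
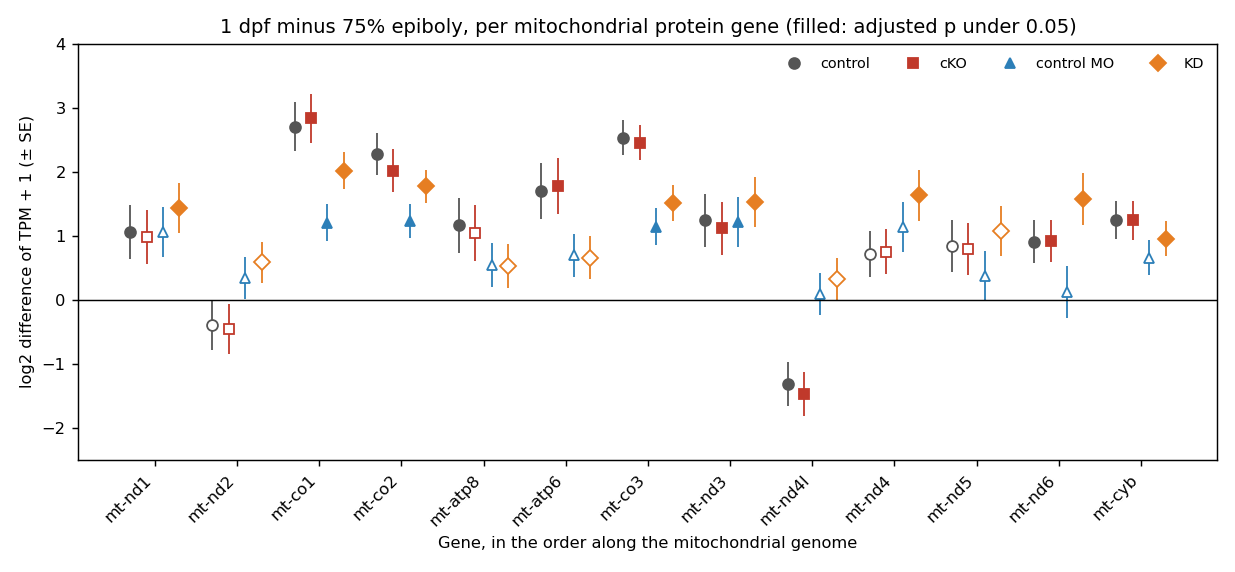
Log2 difference of TPM + 1 between 1 dpf and 75% epiboly for each mitochondrial protein gene (± SE), in the order along the genome, in the 4 groups. The 3 mt-co genes are filled in all groups, with 2.02 to 2.84 in the controls and the cKO, and mt-nd4l lies below 0 in those 2 groups.

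In the morpholino experiment fewer genes passed the test. Of the 35 members that passed the filter, 8 were called in the control-MO libraries and 13 in the KD libraries, and none of them fell. Among the mt- genes 4 rose in the control-MO libraries, where 22.8% of all features rose and 3.58% fell, and 8 rose in the KD libraries, where 13.4% of all features rose and 4.28% fell. Their median log2 difference was 0.70 beside 0.82 over all features in the control-MO libraries, and 1.43 beside 0.46 in the KD libraries. mt-co1 was at 502 and 437 TPM in the control-MO libraries at 75% epiboly and at 1016 and 1148 TPM at 1 dpf (1.20 ± 0.29, limma adjusted p = 0.0146). In the KD libraries it was at 372 and 343 TPM and then at 1383 and 1519 TPM (2.02 ± 0.29, limma adjusted p = 0.00300). That KD call held in all 4 other scalings and in all 8 fits without 1 library.

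The 4 calls of the control-MO libraries, mt-co1, mt-co2, mt-co3 and mt-nd3, rested on the setting. With median-ratio scaling they were at 1.03, 1.06, 0.97 and 1.04, and none passed the test. Without control-MO replicate 2 at 75% epiboly they were at 1.1, 1.21, 0.94 and 1.02, and none passed either. Without control-MO replicate 1 or 2 at 1 dpf no mt- gene passed in this group. Without control-MO replicate 1 at 75% epiboly mt-co1 and mt-nd3 were lost (1.30 and 1.42). In the KD libraries mt-co2 and mt-co3 rose by 1.77 and 1.51. With quantile normalization, which gives each rank the same value in all libraries, they were at 0.68 and 0.49 and were not called. mt-co3 was not called either on the base without the members and the clone-named features (0.90). mt-nd4l was at 306 and 285 TPM and then at 298 and 334 TPM in the control-MO libraries, with no order between the stages.

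The other called KD genes, mt-nd1, mt-nd3, mt-nd4, mt-nd6 and mt-cyb, rose by 0.96 to 1.63. None of the 5 was called on the base without the members and the clone-named features (0.83, 0.93, 1.03, 0.97 and 0.34), and mt-cyb was called in 0 of the 4 other scalings and in 0 of the 8 fits without 1 library. All 5 calls were lost without KD replicate 2 at 1 dpf, where the values were 1.23, 1.53, 1.40, 1.15 and 0.85. They were also lost without control-MO replicate 2 at 1 dpf, at values of 0.96 to 1.63. Without KD replicate 1 at 1 dpf mt-nd3 and mt-cyb were lost (1.55 and 1.06). Of the KD libraries at 75% epiboly, replicate 1 was needed for mt-nd3, mt-nd4 and mt-cyb (1.34, 1.52 and 1.00 without it) and replicate 2 for mt-nd1, mt-nd6 and mt-cyb (1.24, 1.38 and 0.92). Without control-MO replicate 1 at 1 dpf 4 of the 5, and without either control-MO library at 75% epiboly 3 of the 5, were not called either, with unmoved differences.

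With all 20 libraries in 1 fit and the 4 group differences averaged, 11 mt- genes rose, where 53.9% of all features did, and mt-nd4l fell, where 14.9% did. mt-nd2 alone was not called, at 0.02 ± 0.19. In this fit mt-nd1, mt-co1, mt-co2, mt-atp6, mt-co3, mt-nd3, mt-nd4 and mt-cyb were called higher, and mt-nd4l lower, in each of the 4 other scalings. mt-atp8, mt-nd5 and mt-nd6 were not called with quantile normalization (0.28, 0.26 and 0.35) or on the base without the members and the clone-named features (0.19, 0.14 and 0.26).

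The stage change itself was compared between the experiments in contrasts that were added after the values had been seen. Between the controls and the control-MO libraries 1 of 36 members was called, with 4.0% of all features. Between the cKO and the KD libraries 3 of 36 members were called, with 12.5% of all features. These shares pool both directions. All the called members were lower, where 2.17% of all features were lower in the first contrast and 2.78% in the second. By falls alone the share of members was thus not smaller than that of all features. In neither contrast was a member called higher, where 1.83% and 9.73% of all features were. The stage difference of mt-nd4l was -1.48 in the cKO and 0.32 in the KD libraries, where it was not called, and the cKO minus KD value was -1.80 ± 0.50 (limma adjusted p = 0.026). That call was lost without cKO replicate 1 at 75% epiboly (-1.49), cKO replicate 3 at 1 dpf (-1.68), KD replicate 1 at 75% epiboly (-1.59) or KD replicate 2 at 1 dpf (-1.73). Between the 2 kinds of control the same gene differed by -1.41 ± 0.50 and was not called (limma adjusted p = 0.117). The experiments also differ in the germ cell and red blood cell marker sums given above, and the part of these in the difference was not tested.

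Of the NC_002333. rows, 2 held nearly all of the TPM. NC_002333.4 and NC_002333.17 together made up 90.9 to 98.6% of the summed TPM of the 24 rows in every library. NC_002333.4 (ENSDARG00000080337) was the most abundant row of the mitochondrial genome on average, at 44343 to 98957 TPM over the 20 libraries. In the controls it was at 86670, 61697 and 64184 TPM and then at 66446, 55198 and 65822 TPM, so that the stages overlapped. All 4 libraries of the morpholino experiment at 75% epiboly (76399 to 98957 TPM) lay above its 4 at 1 dpf (62553 to 73263 TPM). It was not called in any stage comparison. All other NC_002333. rows together held 0.171 to 0.618% of TPM, and the next after these 2, NC_002333.10, stayed between 1221 and 2354 TPM and was never called. NC_002333.11 was above 0 in 7 of 20 libraries, with at most 4.2 TPM, and passed no filter. NC_002333.24 did not pass it in the morpholino experiment.

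NC_002333.17 (ENSDARG00000082753) fell steeply in the cKO experiment. It was at 56965, 40653 and 74700 TPM in the controls at 75% epiboly and at 5609, 6770 and 6956 TPM at 1 dpf. The cKO libraries gave 54333, 56131 and 58682 TPM and then 5247, 9870 and 5862 TPM. The log2 difference was -3.12 ± 0.23 (limma adjusted p = 5.94e-07) in the controls and -3.07 ± 0.23 (adjusted p = 7.84e-07) in the cKO. With quantile normalization it was -0.64 and called in the controls, and -0.06 and not called in the cKO. In the control-MO libraries the row was at 89012 and 67871 TPM and then at 49161 and 60043 TPM, and in the KD libraries at 75214 and 80121 TPM and then at 60567 and 63857 TPM. The stages did not overlap here either. Neither difference was called (-0.52 and -0.32), and with quantile normalization both turned positive (0.43 and 0.75).

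The ratio of NC_002333.17 to NC_002333.4 does not depend on the rest of the library. It was 0.657 to 1.32 in the cKO experiment at 75% epiboly and 0.0761 to 0.149 at 1 dpf. In the morpholino experiment it was 0.888 to 0.961 and then 0.671 to 1.02. The stage difference of NC_002333.17 differed between the experiments by -2.60 ± 0.33 in the 2 kinds of control (limma adjusted p = 0.000245) and by -2.75 ± 0.33 between cKO and KD (adjusted p = 0.000159). With quantile normalization these values were -0.98 and -0.96, and neither was called. Within the cKO experiment at 75% epiboly the ratio was highest in replicate 3 of both groups, at 1.16 in the control and 1.32 in the cKO, against 0.657 to 0.681 in the other 4 libraries. The same 2 libraries had the lowest nanos3 of that stage in the experiment, at 2270 and 2414 TPM against 6857 to 21249 TPM. Whether the content of other cells had a part in these ratios was not tested.

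**Figure D4:**
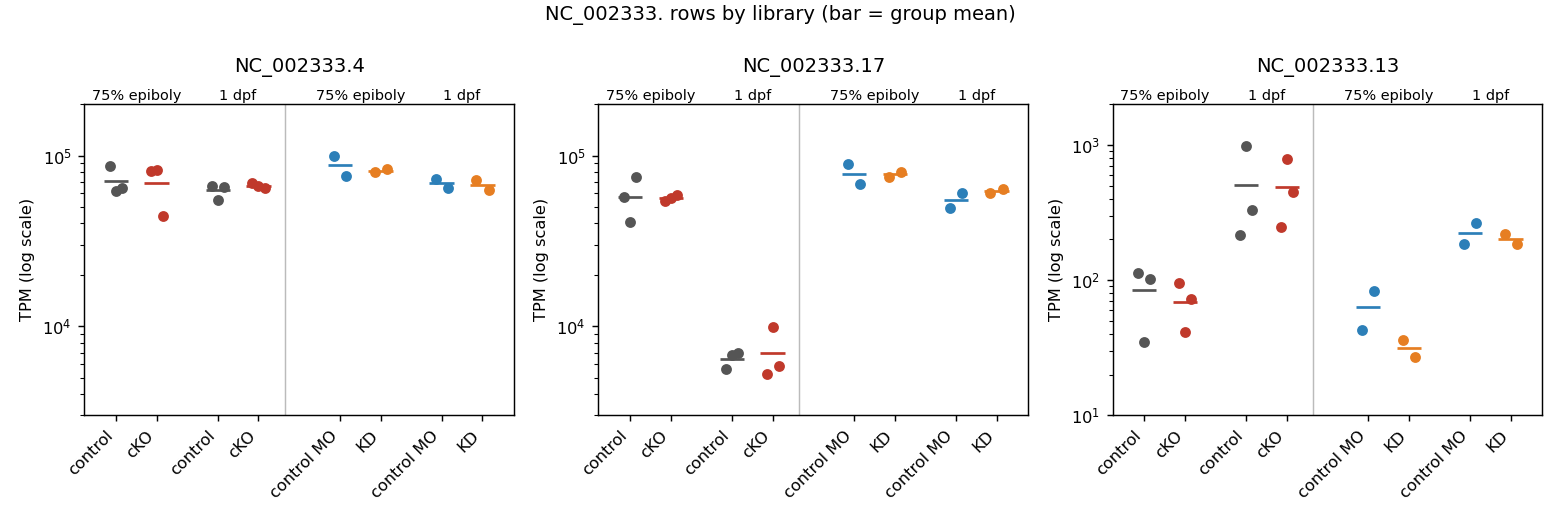
TPM of 3 NC_002333. rows by library on log axes, with group means as bars. NC_002333.4 overlaps between stages in the controls and goes from 76399 to 98957 TPM down to 62553 to 73263 TPM in the morpholino experiment. NC_002333.17 is at 5247 to 9870 TPM at 1 dpf in the cKO experiment and at 49161 to 63857 TPM in the morpholino experiment, and NC_002333.13 has a higher mean at 1 dpf in all groups.

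Some of the less abundant NC_002333. rows were called higher with stage, but only in the KD libraries was their share above that of all features. Of 23 NC_002333. rows tested, 6 were called higher in the controls and 7 in the cKO, where 43.9% and 45.8% of all features were. Of 22 tested in the morpholino experiment, 4 were called higher in the control-MO and 5 in the KD libraries. There 22.8% and 13.4% of all features were called higher. NC_002333.1, NC_002333.5, NC_002333.13 and NC_002333.18 were called higher in the controls (2.06 to 2.46), the cKO (2.12 to 2.74) and the KD libraries (2.0 to 2.64), and all but NC_002333.1 in the control-MO libraries (1.76 to 1.87). In the control-MO libraries these calls were lost on the base without the members and the clone-named features (1.18 to 1.29), without either library at 1 dpf (1.52 to 2.14) and without replicate 1 at 75% epiboly (1.34 to 1.43). Those of NC_002333.5 and NC_002333.18 were lost without replicate 2 at 75% epiboly too (2.30 and 2.18). In the KD libraries NC_002333.1 and NC_002333.5 were not called without replicate 1 at 1 dpf (1.83 and 2.20), and NC_002333.1 was not called on the base without the members and the clone-named features either (1.42). With quantile normalization the control call of NC_002333.1 was lost (1.36, limma adjusted p = 0.0503).

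NC_002333.13, taken as an example, was at 114, 35.1 and 103 TPM in the controls at 75% epiboly and at 214, 980.3 and 330.2 TPM at 1 dpf. It moved together with NC_002333.18, with a ratio of 0.897 to 1.22 in all libraries. At 1 dpf replicate 2 held the highest value of these 4 rows in both the controls and the cKO. NC_002333.9 was at 233, 119 and 144 TPM and then at 1814, 1527 and 1300.2 TPM in the controls (3.27 ± 0.40, limma adjusted p = 2.60e-05). Its ratio to mt-co1 was 0.199 to 0.213 in the cKO experiment at 75% epiboly and 0.275 to 0.349 at 1 dpf. It is listed at 0 in control-MO replicate 2 at 75% epiboly. Its log2 difference in that group was 4.83 with this library and 1.47 without it, and then it was not called. In that group it was called in 0 of the 4 other scalings.

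Other rows fell in the cKO experiment. With NC_002333.17 counted, 5 of 23 were called lower in the controls and 4 in the cKO, where 11.7% and 10.3% of all features were. NC_002333.22, called in the controls only, was at 10.4, 3.9 and 4.6 TPM there and then at 0.04, 0.43 and 3.8 TPM. That call was lost with no filter on low values (limma adjusted p = 0.059). It was also lost without control replicate 1 at 75% epiboly (-1.44) or control replicate 1 or 2 at 1 dpf (-1.38 and -1.60). NC_002333.2, NC_002333.3 and NC_002333.23 were called lower in the controls (-1.97, -1.81 and -2.24) and the cKO (-1.51, -2.20 and -2.32), also in each of the 4 other scalings. The cKO call of NC_002333.2 was lost with no filter on low values (limma adjusted p = 0.069) and without replicate 1 or 2 at 75% epiboly (-0.98 and -1.41) or replicate 2 or 3 at 1 dpf (-1.48 and -1.37). In the morpholino experiment their differences were -0.50 to 0.01 and not called. NC_002333.23 was at 81.4, 44.1 and 83.0 TPM and then at 11.4, 9.8 and 21.0 TPM in the controls. In the control-MO libraries it was at 91.4 and 86.0 TPM and then at 92.6 and 79.6 TPM. Its stage difference between cKO and KD was -2.33 ± 0.72 (limma adjusted p = 0.042), and 11 of the 20 fits without 1 library lost that call. NC_002333.24, a row of low level, had 5.2, 14.8 and 11.6 TPM in control libraries at 1 dpf, and 14.9, 5.1 and 10.7 TPM with the cKO. Against 75% epiboly it was called higher in the cKO (3.06) and not in the controls (0.03). With all libraries in 1 fit 8 of 23 NC_002333. rows rose, where 53.9% of all features did, and 5 fell, where 14.9% did. Of these 6 and 4 were called in each of the 4 other scalings, with the low-level NC_002333.22 among the 4.

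Loss of smad1 changed no member by the test in either experiment. In the cKO at 75% epiboly 0 of the 36 members tested and 0.0% of all features were called by limma, and at an unadjusted p under 0.05 stood 0 mt- genes and 1 NC_002333. row. That row was NC_002333.24, at 14.4, 12.7 and 4.4 TPM in the control libraries but at most 0.4 TPM in the cKO (-3.06 ± 0.72, limma adjusted p = 0.9995), a level at which the pseudocount weighs on the difference. In the cKO at 1 dpf 0 members and 0.00569% of all features, which was smad1 itself, were called. In the KD 0 members and 0.0% of all features were called at either stage, and 0 members had an unadjusted p under 0.05. Averaged over both experiments, 0 members were called at 75% epiboly, where 0.0% of all features were, and 0 at 1 dpf, where 0.238% were. The medians of the mt- genes in these averages were -0.19 beside -0.05 over all features at 75% epiboly and -0.01 beside -0.19 at 1 dpf, where quantile, median-ratio and scaling without the clone-named features gave 0.06 to 0.19. The change of the effect between stages was called for 0 members and for 0.0% of features in either experiment. These tests had 2 or 3 libraries a group, and a result that does not pass does not show that values were equal.

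The nearest to a difference was a small, even shift in the cKO at 1 dpf. All 13 mt- genes had a lower mean there, with log2 differences of -0.35 to -0.14 and a median of -0.26, beside -0.01 over all features. Their share of TPM was 1.84 to 1.92% in the cKO and 2.12 to 2.31% in the controls, and the groups did not overlap. Of the 13 genes, mt-co2, mt-co3, mt-cyb, mt-nd3, mt-nd4, mt-nd5 and mt-nd6 had cKO libraries that all lay below all controls, a pattern found in 5.78% of all features. 6 mt- genes were lower at an unadjusted limma p under 0.05, as 2.65% of all features were, with adjusted values of 0.574 to 0.780. mt-co2 was at 5647, 5958 and 5175 TPM in the control libraries, above the 4662, 4760 and 4782 TPM of the cKO (-0.24 ± 0.07, limma adjusted p = 0.574). mt-nd4 was at 400, 390 and 358 TPM and at 323, 302 and 273 TPM (-0.35 ± 0.12, limma adjusted p = 0.609). mt-nd4l was lower by 0.35 ± 0.19, at 134, 204 and 193 TPM against 144, 153 and 116 TPM, and the groups overlapped. With quantile normalization mt-co1 turned to 0.053. The deviations of same-numbered libraries were only weakly correlated at this stage (0.265, 0.105 and 0.272), and a fit blocked on that number called 0 members. The make-up hardly differed: the mt-co genes made up 72.4% ± 1.48 of mt- TPM in the controls and 72.7% ± 1.20 in the cKO (SD, n = 3). NC_002333. rows had a median of 0.04 and 0 with an unadjusted p under 0.05. The enveloping layer list summed to 29.1 to 3284 TPM in the controls and to 31.2 to 5295 TPM in the cKO, and the red blood cell list to at most 4.24 TPM and to 2.75 to 113 TPM. The sums of these 2 lists overlapped, but 8 of 8 enveloping layer and 4 of 4 red blood cell genes tested lay above 0 (median log2 differences 2.37 and 2.30). The yolk layer and liver list also separated the groups by its sums, at 81.4 to 128 TPM in the controls and 143 to 476 TPM in the cKO. Of its 5 genes tested 5 lay above 0 (median log2 difference 2.60). The part of these in the shift was not tested.

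**Figure D5:**
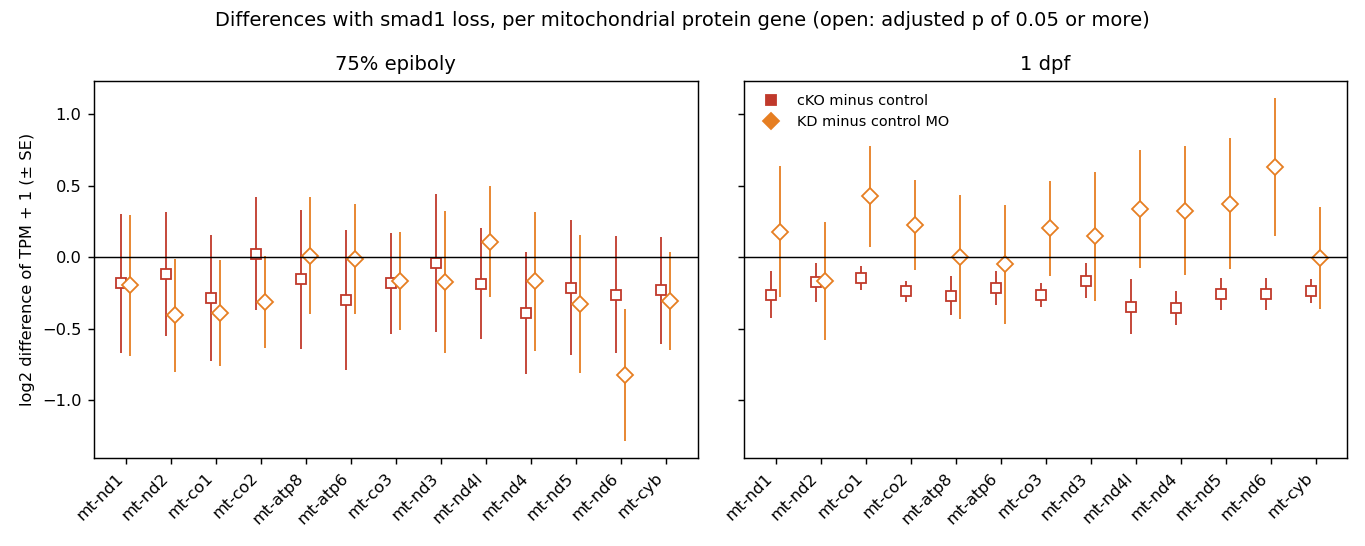
Log2 difference of TPM + 1 with smad1 loss for each mitochondrial protein gene (± SE), in the cKO against the controls and the KD against the control-MO libraries, at both stages. All symbols are open (not called), and all 13 cKO values at 1 dpf lie between -0.35 and -0.14.

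In the KD at 1 dpf the values leaned the other way, and at 75% epiboly the same way as in the cKO. Whether the experiments differ in this was not tested. At 1 dpf the mt- genes had a median log2 difference of 0.20, beside -0.38 over all features, and their share of TPM was 1.04% and 1.30% against 0.970% and 1.06%. 5 of the 13 (mt-co1, mt-nd4, mt-nd4l, mt-nd5 and mt-nd6) had KD libraries above both control-MO libraries, as 5.57% of all features did. So did 8 of the NC_002333. rows, NC_002333.17 and NC_002333.9 among them, while 2 (NC_002333.8 and NC_002333.22) had KD libraries below both control-MO libraries, as 34.7% of all features did. mt-nd6 was furthest, at 162 and 294 TPM against 138 and 143 TPM (0.63 ± 0.48, limma adjusted p = 0.743). The median was 0.05 without KD replicate 2 and 0.40 without KD replicate 1. Red blood cell genes summed to 32541 and 67906 TPM in these KD libraries and to 18576 and 6934 TPM in the control-MO libraries. Muscle genes summed to 105 and 34.5 TPM against 571 and 685 TPM, with 0 of 6 genes above 0 (median log2 difference -2.99). The enveloping layer list was also lower in both KD libraries, at 554 and 932 against 1082 and 1041 TPM. So were the yolk layer and liver list (47.7 and 30.6 against 76.9 and 77.8 TPM) and the neural list (66.0 and 86.6 against 88.8 and 174 TPM). In these lists 1 of 8, 1 of 5 and 1 of 5 genes tested lay above 0. In the germ cell list, whose sums overlapped, 1 of 9 did. The part of these lists in the values was not tested. At 75% epiboly the median of the mt- genes was -0.20 beside -0.06 over all features. 6 of the 13 (mt-co1, mt-co2, mt-cyb, mt-nd2, mt-nd5 and mt-nd6) had KD libraries below both control-MO libraries, as 14.9% of all features did. The same held for 4 of the NC_002333. rows (NC_002333.1, NC_002333.13, NC_002333.18 and NC_002333.20), while NC_002333.3 and NC_002333.15 lay above, as 7.37% of all features did. mt-nd6 was again furthest, at 83.1 and 63.4 TPM against 136 and 122 TPM (-0.82 ± 0.46). The yolk layer and liver list summed to 533 to 644 TPM in these KD libraries and to 1256 to 2491 TPM in the control-MO libraries. Of its 5 genes tested 2 lay above 0 (median log2 difference -1.24). The enveloping layer list summed to 46.1 to 313 TPM in the KD and to 70.4 to 1780 TPM in the control-MO libraries, so the groups overlapped. Of the 8 enveloping layer genes 0 lay above 0 (median log2 difference -1.35), and the part of both lists was not tested. In the cKO at 75% epiboly the median was -0.19 beside -0.07. It ran from -0.61 to 0.30 when 1 library at a time was left out, and 1 replicate of each group reached above 0.9% of TPM while the others lay between 0.320 and 0.620%.

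Nuclear genes that act on the mitochondrial genome were counted in the fit of all libraries, where 53.9% of all features rose from 75% epiboly to 1 dpf and 14.9% fell. The counts of the lists in that fit are to be read against these shares. The counts moved with the scaling, and the shares do not apply to the other scalings. There the median over all features ran from -0.01 to 0.81. Of 7 genes of mitochondrial transcription 6 were called higher and 0 lower, with a median log2 difference of 1.68 beside 0.82 over all features. They included tfam, which packages mitochondrial DNA and activates its promoters (2.21 ± 0.26, limma adjusted p = 5.44e-07), and the initiation factor tfb2m (1.84 ± 0.39). mterf3 and the elongation factor tefm rose by 1.68 and 1.62. The polymerase polrmt itself was not called (0.37 ± 0.29, limma adjusted p = 0.270), at a mean of 3.6 TPM. tfam had a mean of 21.8 TPM in the controls at 75% epiboly and 114 TPM at 1 dpf, and of 24.5 and 54.8 TPM in the control-MO libraries. Over the 4 other scalings 5 or 6 of the 7 rose and at most 1 fell, with medians of 1.09 to 1.63.

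Of 14 features of mitochondrial DNA replication and maintenance, 8 rose and 2 fell (median 0.95), near the shares of all features. The single-strand binding protein ssbp1 rose by 1.37 ± 0.14 and rnaseh1, which removes RNA from RNA-DNA hybrids, by 1.94 ± 0.19. The DNA ligase lig3 and the nuclease dna2 fell by 1.23 and 1.54. With quantile normalization 6 of the 14 rose and 4 fell, with a median of -0.09 beside -0.01 over all features. Of 20 genes of mitochondrial RNA processing and decay, 9 rose and 3 fell (median 0.40), a smaller share of rises than the 53.9% of all features. slirp, which keeps mitochondrial mRNA stable together with lrpprc in mammals, rose by 2.22 ± 0.23, and prorp, the nuclease that cuts tRNA 5' ends, by 2.34 ± 0.31. lrpprc rose by 0.71, and angel2 fell by 1.09. The counts of this list moved with the scaling, and so did the median over all features. With quantile normalization 6 rose and 10 fell (median -0.27 beside -0.01 over all features). On the base without the members and the clone-named features 7 rose and 6 fell (median -0.09 beside 0.41). In the main fit and in each of the 4 other scalings the median of the list lay below that of all features. Of 13 genes that modify mitochondrial rRNA and tRNA, 9 rose and 1 fell (median 1.17), with mto1 at 3.13, cdk5rap1 at 3.12 and trnt1, which adds the tRNA 3' end, at 2.34. Over the other scalings 6 to 9 of the 13 rose and 1 or 2 fell.

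Of 7 regulators of mitochondrial content 2 rose, the coactivators ppargc1a and ppargc1b (2.18 and 1.71), and 2 fell, nrf1 and gabpa (-0.87 and -0.54), with a median of -0.06. With quantile normalization 1 rose and 3 fell. Of 10 genes of mitophagy and mitochondrial dynamics tested 8 rose and 0 fell (median 1.01, beside 53.9% and 14.9% of all features), among them the fission factor mff (2.43), and with quantile normalization 3 rose and 2 fell.

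Nuclear genes named as oxidative phosphorylation subunits rose in nearly all cases. In the fit of all libraries 86 of 90 tested were called higher and 0 lower, where 53.9% of all features were higher and 14.9% lower, with a median of 2.24 beside 1.06 for the 13 mt- genes. Over the 4 other scalings 79 to 86 were called higher and at most 2 lower, with medians of 1.66 to 2.19. In the controls 81 of 90 were called higher, where 43.9% of all features were, with a median of 2.64 beside 1.16. In the control-MO libraries 63 of 90 were, where 22.8% of all features were, with 1.86 beside 0.70. In the 4 tables of smad1 loss no gene of these nuclear lists was called. In the average of both experiments at 1 dpf 1 of them was lower, cox6b1, a nuclear subunit of complex IV (-1.40 ± 0.27, limma adjusted p = 0.033), and 0 genes were called in the averages at 75% epiboly or in the changes of the effect between stages. Of the oxidative phosphorylation genes, 28 of 81 had a log2 difference above 0 in the cKO at 75% epiboly (median -0.06) and 19 of 91 at 1 dpf (-0.10). In the KD these counts were 22 of 83 (-0.25) and 19 of 91 (-0.33). Over all features tested the medians at the 2 stages were -0.07 and -0.01 in the cKO and -0.06 and -0.38 in the KD. In the cKO at 75% epiboly and the KD at 1 dpf the list thus moved no further than the median feature.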

How the data were processed

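RNA of 20 libraries of sorted zebrafish PGCs was used, in 4 tables of 32520 features, and the 4 amplicon DNA samples were not used here. Full-length cDNA was amplified and tagged by a transposase, per the labels' protocols. The deposited tables hold TPM. GRCz11 and danRer11 are the builds, and StringTie 2.2.1 and STAR 2.7.10b the tools, listed without roles per the submitters' processing notes. How reads that map to several places, overlapping genes or strand were treated is not given in the sources used here. TPM keep no depth, so no counting error is given. All per-sample columns were matched to a sample by name. 896 features had no name and 533 names were used more than once, so fits ran by gene ID.

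Values were tested with limma 3.58.1 (R 4.3.3; empirical Bayes with a trend) on log2(TPM + 1), for features with a mean of at least 1 TPM over the libraries of the fit. Each smad1 effect was fitted in its own table, stage and interaction in the 4 groups of an experiment, and averages, the stage difference over all groups and the differences between experiments in all 20 libraries. p-values were adjusted by Benjamini-Hochberg over all features, with a threshold of 0.05 in 2-sided tests. Fits were tested on simulated data. Shares, ratios and lists are described without a test. Tables and figures were made with Python 3.11.15, pandas 2.3.3, numpy 2.4.6 and matplotlib 3.10.9.

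Named are all mt- genes, the 5 NC_002333. rows with the highest mean TPM, up to 4 rows per comparison by smallest p, and up to 4 called genes per list by smallest p. Further rows and genes, such as polrmt, lrpprc and angel2, were named after their values were seen. Members and gene lists were chosen with earlier results of these data known. Results were recomputed without a filter, with a minimum mean of 5 TPM, a pseudocount of 0.1, quantile normalization, median-ratio scaling (over features of at least 5 TPM in all libraries, without the members and the 9 clone-named features), TPM rescaled to the sum of all non-members, the same without the clone-named features as well, no trend, a replicate block, wider fits, and leaving out each library. The base without the clone-named features, the differences between experiments and the scalings of the gene lists were added after seeing the data. Same-numbered control and cKO libraries deviated together, with correlations of 0.176, 0.196 and 0.417 at 75% epiboly and 0.265, 0.105 and 0.272 at 1 dpf. These are low in part, and the labels name no pairs. The main tests therefore had no block, so their p-values leave out any pairing, and the replicate block was run beside them. In fits of both stages the block also tied same-numbered libraries across stages, for which no pairing was looked at. The morpholino libraries have only 2 numbers, with 0.0777 at 75% epiboly and 0.601 at 1 dpf, and share only a number.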

Additional observations from a re-analysis of the deposited data

Results flagged for a closer look

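In 4 cases the stage difference of a member differed between the experiments by a test of the difference itself, in contrasts chosen after the values were seen. Between the 2 kinds of control 1 of 36 members was called, where 4.0% of all features were. Between the cKO and the KD libraries 3 of 36 were, where 12.5% of all features were. Both were smaller shares of the members than of all features only with both directions pooled. All the called members were lower, where 2.17% and 2.78% of all features were. NC_002333.17 differed by -2.60 on the log2 scale between the controls and the control-MO libraries and by -2.75 between the cKO and the KD libraries. mt-nd4l differed by -1.80 between the cKO and the KD libraries, and NC_002333.23 by -2.33. In each case the member fell from 75% epiboly to 1 dpf in the cKO experiment and differed by -0.52 to 0.32 in the morpholino experiment. Both calls of NC_002333.17 were lost with quantile normalization. That setting gives each rank the same value in all libraries, so a row can move only as far as its rank does. The ratio of NC_002333.17 to NC_002333.4 does not depend on the scaling. It went from 0.657 to 1.32 down to 0.0761 to 0.149 in the cKO experiment. In the morpholino experiment it was 0.888 to 0.961 and then 0.671 to 1.02. Those of mt-nd4l and NC_002333.23 were lost without some single libraries and without the trend. The germ cell and red blood cell marker sums also differ between the experiments, and their part was not tested.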

How the results depend on the processing

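No setting brought a call of a member with smad1 loss except 2: the replicate block in the KD at 75% epiboly (1, NC_002333.9, listed at 0 in 1 control-MO library) and, in the average at 75% epiboly, leaving out control-MO replicate 1 (1, with 0 to 1 over all such fits). The block changed no other call with smad1 loss. Counts of members called with stage depended on the setting in the morpholino experiment. In the main fits 26.4% of all features were called in the control-MO libraries and 17.7% in the KD libraries. For the differences between experiments these shares were 4.0% (control and control-MO) and 12.5% (cKO and KD). The shares under the other settings are not given here. The counts therefore do not show whether the members changed apart from the other features. In the control-MO libraries 8 members were called, 4 with quantile normalization, 3 with median-ratio scaling, 3 without the trend, 1 without the clone-named features, and 0 to 10 with 1 library left out. That count was 3 without replicate 1 and 1 without replicate 2 at 75% epiboly, and 0 without either at 1 dpf. In the KD libraries 13 were called, 7 without the trend, 6 without the clone-named features and 7 to 11 with 1 library left out. The difference between control and control-MO had 1 member, 6 with quantile normalization, 2 with median-ratio scaling, 2 with the block (adding mt-co3) and 1 to 3 with 1 library left out. That between cKO and KD had 3, then 7 with quantile normalization, 1 without the trend and 1 to 5 with 1 library left out.

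The median log2 difference of the mt- genes with stage fell with quantile normalization and without the clone-named features, in that order, to 0.48 and 0.56 in the controls, 0.23 and 0.35 in the cKO, 0.27 and 0.11 in the control-MO libraries (0.52 with median-ratio scaling), 0.68 and 0.83 in the KD libraries (1.15 to 1.55 with 1 library left out) and 0.56 and 0.44 over all libraries. The median over all features fell as well. In the same order it was 0.015 and 0.53 in the controls and 0.014 and 0.58 in the cKO. It was -0.05 and 0.44 in the control-MO libraries, -0.05 and 0.05 in the KD libraries and -0.01 and 0.41 over all libraries. Between cKO and KD the median of the mt- genes was -0.28, and -0.95 with quantile normalization, -0.93 with median-ratio scaling and -0.83 to 0.15 with 1 library left out. With KD at 1 dpf it was 0.46, 0.58 and 0.34 under quantile normalization, median-ratio scaling and without the clone-named features, and 0.050 to 0.40 with 1 library left out. The change of the KD effect between stages was 0.37, 0.67 with median-ratio scaling and 0.19 to 0.57 with 1 library left out. With quantile normalization mt-co1 in the cKO at 1 dpf turned to 0.053 and NC_002333.17 over all libraries to 0.11.

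Without the NC_002333. rows and the clone-named features the mt- share of TPM at 75% epiboly was 1.12% in the controls, 1.1% in the cKO, 0.988% in the control-MO and 0.945% in the KD libraries, and at 1 dpf 2.45%, 2.11%, 1.27% and 1.61%. Without mt-co2 among the other genes the mt-nd6 ratio was 0.711 in the controls at 75% epiboly, 1.06 in the cKO at 1 dpf and 0.447 in the control-MO libraries at 1 dpf. The cause of these shifts was not tested.

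The depth is unknown, groups hold 2 or 3 libraries, stage and table coincide, and TPM are shares, so a gain of one RNA lowers the others. The scaling that fits these cells best cannot be told from the files.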
